A study of Mus musculus with 60 samples.

Results

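MMERGLN is a family of mouse endogenous retroviruses, the remains of gammaretroviruses that entered the germ line, and it is counted in these data as 2 features: MMERGLN-int, the internal part of the provirus, and MMERGLN_LTR, its long terminal repeats. These 2 members, of 56633 features and 1146 repeat subfamilies counted, were chosen by name from their measured values: the difference between the cell lines, the effect of POLE4 depletion and the course under retinoic acid (RA) had been seen in the same libraries. The values of both members, and whether they passed the threshold used for all features, are therefore given as a description, with no test.

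The internal part of such a provirus holds the gag, pro-pol and env genes, and the flanking repeats hold the promoter and the polyadenylation signal. The family is named for the glutamine tRNA that primes its reverse transcription. In mouse embryonic stem cells (mESCs), proviruses of this kind are generally kept silent by KRAB zinc-finger proteins that recruit TRIM28 and the H3K9 methyltransferase SETDB1, and by DNA methylation. Both kinds of silencing have to be passed on at each DNA replication, when old histones are handed to the new strands.

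The samples were mESCs of the E14JU line in serum and LIF. All carried a degradation tag on POLE4, a subunit of DNA polymerase epsilon that hands old histones to the leading strand. One line (POLE4-dTAG, here WT) had otherwise normal MCM2, and the other (POLE4-dTAG, MCM2-2A, clone 2) carried MCM2-2A, a mutation of the histone-binding residues of the replicative helicase that impairs the hand-over to the lagging strand. Each line was 1 clone, so the mutation and the clone cannot be told apart. Cells received DMSO (Ctrl and Ctrl MCM2-2A) or 1 µM dTAG, which degrades POLE4 (dPOLE4 and dPOLE4 MCM2-2A), for 24 h, were sampled (T0), and were then sampled after 12, 24 and 60 h in RA without LIF (T12, T24, T60). These times are those of the sample titles and of the study's methods. The treatment protocol in the labels names 24, 48 and 60 h of RA, so the labels conflict on the first 2 times. A separate set was treated with DMSO or dTAG for 96 h without RA. The 20 groups held 3 libraries each.

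The RNA was depleted of ribosomal RNA and sequenced as stranded libraries. The total per library was between 10461077 and 46609151 counts in the 48 libraries at 24 h and in RA, and between 7126100 and 23598266 in the 12 libraries at 96 h. Repeats took between 5.85% and 9.06% of the counts. MMERGLN-int had between 1140 and 20826 counts per library and MMERGLN_LTR between 74 and 1745, so counting error was larger for the LTR. The pluripotency markers Pou5f1, Nanog, Sox2 and Zfp42, which define mESCs, summed to between 2063 and 2408 CPM (counts scaled to one fixed library total) in the libraries of Ctrl and Ctrl MCM2-2A at T0. The Pole4 transcript was at −0.06 (log2, adjusted p = 0.814, edgeR's quasi-likelihood test with Benjamini-Hochberg adjustment) under dTAG in MCM2-2A cells at T0. The tag acts on the protein, so this does not check the depletion. Without depletion, Pole4 was lower in Ctrl MCM2-2A than in Ctrl, at 33.5 against 52.2 CPM at T0 (log2 −0.68, adjusted p = 2.96e-06, same test). At 96 h it was at 26.7 against 53.0 CPM (−0.95, adjusted p = 1.48e-05, same test). Mcm2 was lower too (−0.70 at T0 and −0.81 at 96 h).

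All levels below are CPM, scaled between libraries by TMM (an edgeR method that assumes that most features do not differ), and fold changes are log2 with their standard error. A feature is called differentially expressed (DE) at a Benjamini-Hochberg adjusted p below 0.01 with a log2 fold change beyond 0.58 in either direction. The tables give subfamilies and not single copies, so which copies carried a difference, and whether reads came from the proviral promoter or from host transcripts, cannot be told apart. In these bulk samples a smaller number of expressing cells and less RNA per cell cannot be told apart either.

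MMERGLN-int was about 2 times as abundant in the MCM2-2A line as in the WT line before any depletion. At T0, the 3 Ctrl libraries had 243, 255 and 253 CPM, and the 3 Ctrl MCM2-2A libraries 508, 464 and 523 CPM. Every Ctrl MCM2-2A library lay above every Ctrl library. The means were 250.4 ± 6.77 and 498 ± 30.4 CPM (SD, n = 3), a 1.94-fold difference (log2 0.95, SE 0.052, 95% interval 0.84 to 1.07). By log2 fold change, MMERGLN-int was the 3rd highest of 880 repeat subfamilies. Of those, 7 were DE higher in Ctrl MCM2-2A and 23 were DE lower. Of all features tested, 9.83% were DE higher and 29.6% did not overlap in that direction.

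MMERGLN_LTR differed in the same direction at T0. Its levels were 22.3, 24.9 and 22.2 CPM in Ctrl and 41.7, 35.6 and 43.8 CPM in Ctrl MCM2-2A, again with no overlap. The log2 difference was 0.77 (SE 0.079, 0.60 to 0.95), 1.71-fold, the 5th highest of 880.

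The line difference was DE for both members at every other time. At T12, Ctrl had 259.8, 250.2 and 267 CPM of MMERGLN-int and Ctrl MCM2-2A 485, 464 and 493 CPM, a log2 difference of 0.92 (SE 0.057), with 6.95% of features DE higher and 21.5% not overlapping in that direction. The gap was smaller at T24, when Ctrl had 277, 295 and 270.2 CPM and Ctrl MCM2-2A 403, 454 and 452 CPM (log2 0.67, SE 0.055; 9.71% DE higher, 25.1% not overlapping). For the LTR, the log2 difference was 0.75 (SE 0.103) at T12 and 0.65 (SE 0.080) at T24. In none of these comparisons did the lines overlap. The LTR call at T24 was lost without Ctrl MCM2-2A replicate 3 (0.57).

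The largest log2 difference between the lines was that at T60. Ctrl libraries had 116, 123 and 108 CPM of MMERGLN-int and Ctrl MCM2-2A libraries 379.9, 388 and 378 CPM, 3.24-fold higher (log2 1.70, SE 0.066, 1.56 to 1.84; 8.97% DE higher, 28.4% not overlapping). The means were 116 ± 7.94 and 382 ± 5.41 CPM, so the spread between libraries was small beside the gap. MMERGLN_LTR had 8.52, 7.26 and 6.98 CPM in Ctrl against 19.6, 22.6 and 23.4 CPM in Ctrl MCM2-2A (log2 1.49, SE 0.114). At this time 47 of 824 repeat subfamilies were DE higher in the MCM2-2A line, beside the 8.97% of all features, and MMERGLN-int was the 5th highest. The median log2 difference was 0.30 over the repeats and 0.01 over all features.

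At 96 h without RA, in the separate set of libraries, MMERGLN-int had 133, 153 and 141 CPM in Ctrl and 317, 403 and 348 CPM in Ctrl MCM2-2A. The difference of 2.57-fold (log2 1.36, SE 0.093, 1.16 to 1.56) was the highest of all 852 repeat subfamilies tested, of which 3 were DE higher, beside 9.23% of all features DE higher and 20.6% not overlapping in that direction. The LTR had 18.1, 16.02 and 16.5 CPM in Ctrl and 29.9, 29.2 and 29.2 CPM in Ctrl MCM2-2A (log2 0.84, SE 0.106). The 2 sets were normalized separately, so the lower Ctrl level at 96 h than at T0 is not a comparison.

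Some lineage markers differed between the lines too. The endoderm markers Gata4, Gata6 and Sox17 summed to between 3.46 and 8.49 CPM in Ctrl at T0 and to between 14.1 and 19.4 CPM in Ctrl MCM2-2A, with Gata4 at 7.80 against 1.42 CPM (log2 2.43, adjusted p = 8.22e-06, edgeR's quasi-likelihood test with Benjamini-Hochberg adjustment). The trophectoderm markers summed to between 10.7 and 15.8 CPM in Ctrl and between 9.50 and 11.3 CPM in Ctrl MCM2-2A, which overlapped. Cdx2 was lower there by 1.35 (adjusted p = 0.000941, same test), while Eomes was at −0.01 (adjusted p = 0.94, same test). That direction was not kept: Cdx2 was at 0.01 at 96 h and 1.44 at T60, and Eomes at 0.80 and 0.94. None of the 3 marker sums was at 0 in any library, and the pluripotency markers were not DE (0 of 4; 2 at an unadjusted p below 0.05 and 0 by DESeq2). The genes of some chromosomes also differed between the lines in their median in Ctrl at T0. The median log2 difference was 0.56 over 679 genes of chromosome 15, 0.24 over 568 of chromosome 14 and −0.48 over 1391 of chromosome 11. The other nuclear chromosomes lay between −0.17 and 0.06. At 96 h the medians of chromosomes 15, 14 and 11 were 0.53, 0.35 and −0.51. A median does not tell a whole chromosome from a segment. The part of endoderm cells or of chromosome copy number in the MMERGLN difference was not tested.

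**Figure D1:**
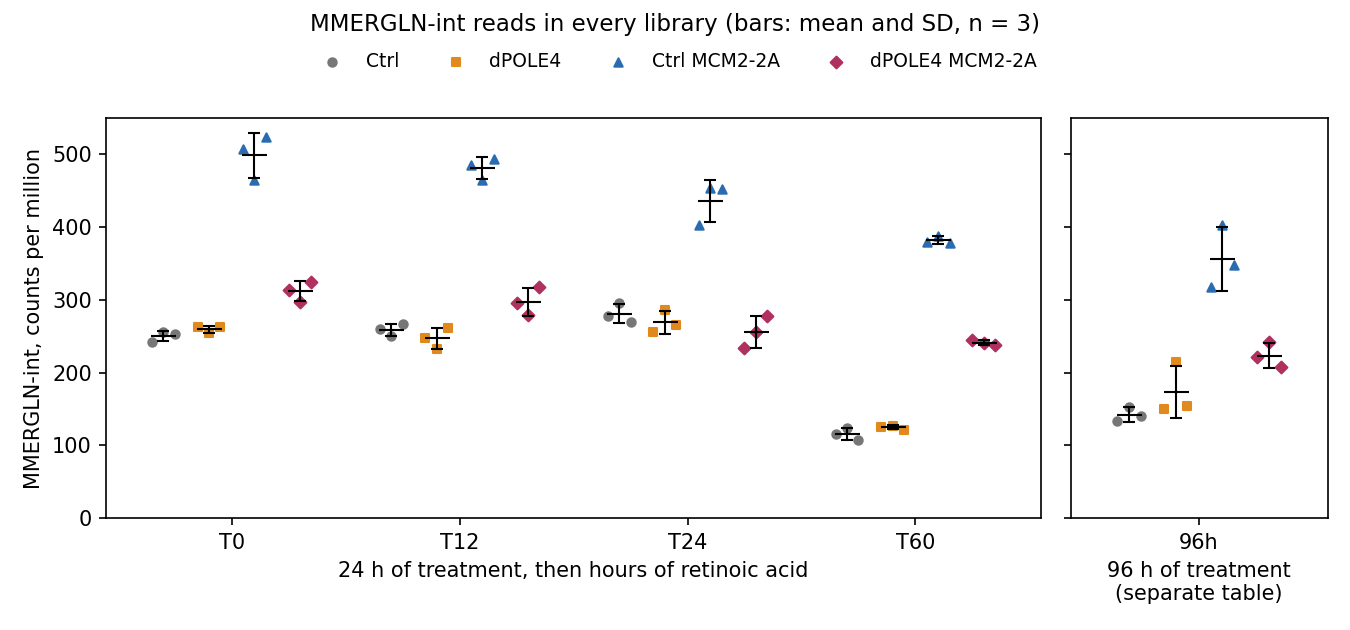
MMERGLN-int level (CPM, TMM-scaled, axis from 0) in each library (points) with the mean and SD of the 3 libraries of a group; T0 to T60 and 96 h are separate sets. The Ctrl MCM2-2A libraries lie above those of the other 3 states at every time, and the Ctrl and dPOLE4 libraries fall together at T60.

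POLE4 depletion lowered MMERGLN-int in the MCM2-2A line and left no DE difference in the WT line. At T0, the Ctrl MCM2-2A libraries with 508, 464 and 523 CPM stood against dPOLE4 MCM2-2A libraries with 313, 298 and 325 CPM, with no overlap. The fall was 1.56-fold (log2 −0.65, SE 0.070, −0.80 to −0.49), and MMERGLN-int was the 1 repeat subfamily of 876 that was DE lower, although it was the 5th lowest by fold change. DE lower were 0.0495% of all features, and 10.8% did not overlap in that direction. With the replicate block 143 features were DE in either direction instead of 13, MMERGLN-int (−0.65) among them. This size is near the DE limit: leaving out any of the 6 libraries but dPOLE4 MCM2-2A replicate 1 ended the call, with values between −0.67 and −0.62, and so did scaling on repeats alone (−0.71).

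In WT cells, the same treatment gave 262, 254 and 262 CPM in dPOLE4 at T0, beside the 243, 255 and 253 CPM of Ctrl. These values overlapped, and the log2 difference was 0.03 (SE 0.047, −0.08 to 0.13). Here 0% of all features were DE lower by edgeR's quasi-likelihood test, which called 0 features DE at all, beside 2069 at an unadjusted p below 0.05 and 0 by DESeq2. The POLE4 effect in MCM2-2A minus that in WT was −0.67 (SE 0.077, −0.83 to −0.50) for MMERGLN-int. It was the 1 feature DE in this difference (0.00526% of 19007 tested; 1024 features at an unadjusted p below 0.05 and 12 DE by DESeq2). That call was lost on leaving out 8 of the 12 libraries in turn, at values between −0.71 and −0.64; it was kept without Ctrl MCM2-2A replicate 1 or 2 and without dPOLE4 MCM2-2A replicate 1 or 3.

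MMERGLN-int was DE lower with POLE4 depletion at each later time in the MCM2-2A line as well. At T12, dPOLE4 MCM2-2A had 295, 279 and 317 CPM against 485, 464 and 493 CPM in Ctrl MCM2-2A (log2 −0.70, SE 0.063; 0.188% of features DE lower, 9.94% not overlapping). At T24 it had 233, 256 and 277 CPM against 403, 454 and 452 CPM (−0.77, SE 0.076; 0.504% DE lower, 13% not overlapping). No library of one state reached the range of the other at either time. At T60 the levels were 244, 241 and 237 CPM against 379.9, 388 and 378 CPM (−0.65, SE 0.059; 1.19% DE lower, 15.5% not overlapping).

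The fall was also seen after 96 h of depletion without RA. dPOLE4 MCM2-2A had 221, 241 and 208 CPM and Ctrl MCM2-2A 317, 403 and 348 CPM, a log2 difference of −0.67 (SE 0.090, −0.87 to −0.47), DE beside 0.109% of features DE lower and 7.49% not overlapping in that direction. With the replicate block, 307 features were DE in either direction instead of 53, and the MMERGLN-int difference was −0.67 and DE. The 1.59-fold fall at 96 h and the 1.56-fold fall at T0 come from separate sets and were not compared by a test. The DE call at 96 h was lost on leaving out any library but Ctrl MCM2-2A replicate 1, which had the lowest total of the set (7126100 counts), with values between −0.73 and −0.59.

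In WT cells no time had a DE difference and the states overlapped throughout. The log2 differences of MMERGLN-int were −0.05 (SE 0.057) at T12, −0.06 (SE 0.058) at T24 and 0.11 (SE 0.062) at T60. Features DE lower made up 0%, 0% and 0.134%. By edgeR's quasi-likelihood test 0, 0 and 33 features were DE in either direction, beside 1150, 1451 and 2446 at an unadjusted p below 0.05 and 2, 17 and 39 by DESeq2. At 96 h, dPOLE4 had 150.3, 215 and 154 CPM against 133, 153 and 141 CPM in Ctrl, so 1 dPOLE4 library stood above the rest. The log2 difference was 0.29 (SE 0.114, 0.04 to 0.54) with all libraries and 0.12 without that one, dPOLE4 replicate 2. Features DE lower were 0% there (0 DE in either direction by edgeR, 2164 at an unadjusted p below 0.05, 25 by DESeq2).

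The difference of the 2 POLE4 effects stayed between −0.75 and −0.64 from T0 to T60. It was −0.64 (SE 0.083) at T12, −0.72 (SE 0.103) at T24 and −0.75 (SE 0.083) at T60, DE at each of these times, with 0.0159%, 0.0351% and 0.0685% of features DE lower. Scaled on repeats alone, it was −0.88, −0.59, −0.89 and −0.61 from T0 to T60 and not DE at any of these times. The call was lost on leaving out 6 of the 12 libraries in turn at T12 (values from −0.69 to −0.60) and 10 of 12 at T24 (−0.78 to −0.65); it was kept without Ctrl or Ctrl MCM2-2A replicate 2 or 3, dPOLE4 replicate 2 or dPOLE4 MCM2-2A replicate 3 at T12, and without dPOLE4 replicate 1 or 2 at T24. At 96 h the difference was −0.96 (SE 0.164, −1.31 to −0.61) and was not DE, where 0% of features were DE lower (0 DE by edgeR, 686 at an unadjusted p below 0.05, 1 by DESeq2). With the replicate block it was −0.94 and DE.

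MMERGLN_LTR had POLE4 differences of the same sign in the MCM2-2A line, each estimated closer to 0 than that of the internal part. At T0 it had 25.5, 25.3 and 30.8 CPM in dPOLE4 MCM2-2A against 41.7, 35.6 and 43.8 CPM in Ctrl MCM2-2A (log2 −0.54, SE 0.094, −0.74 to −0.33). The libraries did not overlap, but the difference was not DE. It was −0.47 (SE 0.082) at T12, −0.68 (SE 0.095, DE) at T24, −0.47 (SE 0.138, overlapping) at T60 and −0.42 (SE 0.131) at 96 h. At T60 a single library, dPOLE4 MCM2-2A replicate 3, had 19.7 CPM beside 13.5 and 13.8 CPM in the other 2, and without it the difference was −0.67 and DE. In WT the LTR differences lay between −0.12 and 0.17, none of them DE. The LTR differences of the 2 POLE4 effects were −0.50, −0.46, −0.57, −0.52 and −0.58 from T0 to T60 and at 96 h, none DE.

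With POLE4 depleted in both lines, the lines did not differ at the DE limit until T60. The MMERGLN-int difference between dPOLE4 MCM2-2A and dPOLE4 was 0.28 (SE 0.066) at T0, 0.28 (SE 0.057) at T12 and −0.06 (SE 0.082) at T24, none DE, while 10.3%, 9.88% and 8.73% of features were DE higher. The libraries of the lines still did not overlap at T0 (298 to 325 CPM in dPOLE4 MCM2-2A against 254 to 262 in dPOLE4). They did not overlap at T12 either (279 to 317 against 233 to 261 CPM), but did at T24. The LTR libraries were likewise apart at T0 and T12 and overlapped at T24. At T60 the lines stood apart again: dPOLE4 had 126, 127 and 122 CPM and dPOLE4 MCM2-2A 244, 241 and 237 CPM (log2 0.95, SE 0.057, DE; 11.5% of features DE higher). MMERGLN_LTR differed by 0.97 (SE 0.156, DE) at that time. At 96 h the difference was 0.39 (SE 0.118, not DE, libraries overlapping; 9.7% of features DE higher). Comparisons that share a group of libraries, such as the line difference in Ctrl and the POLE4 effect in MCM2-2A, are not independent of each other.

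**Figure D2:**
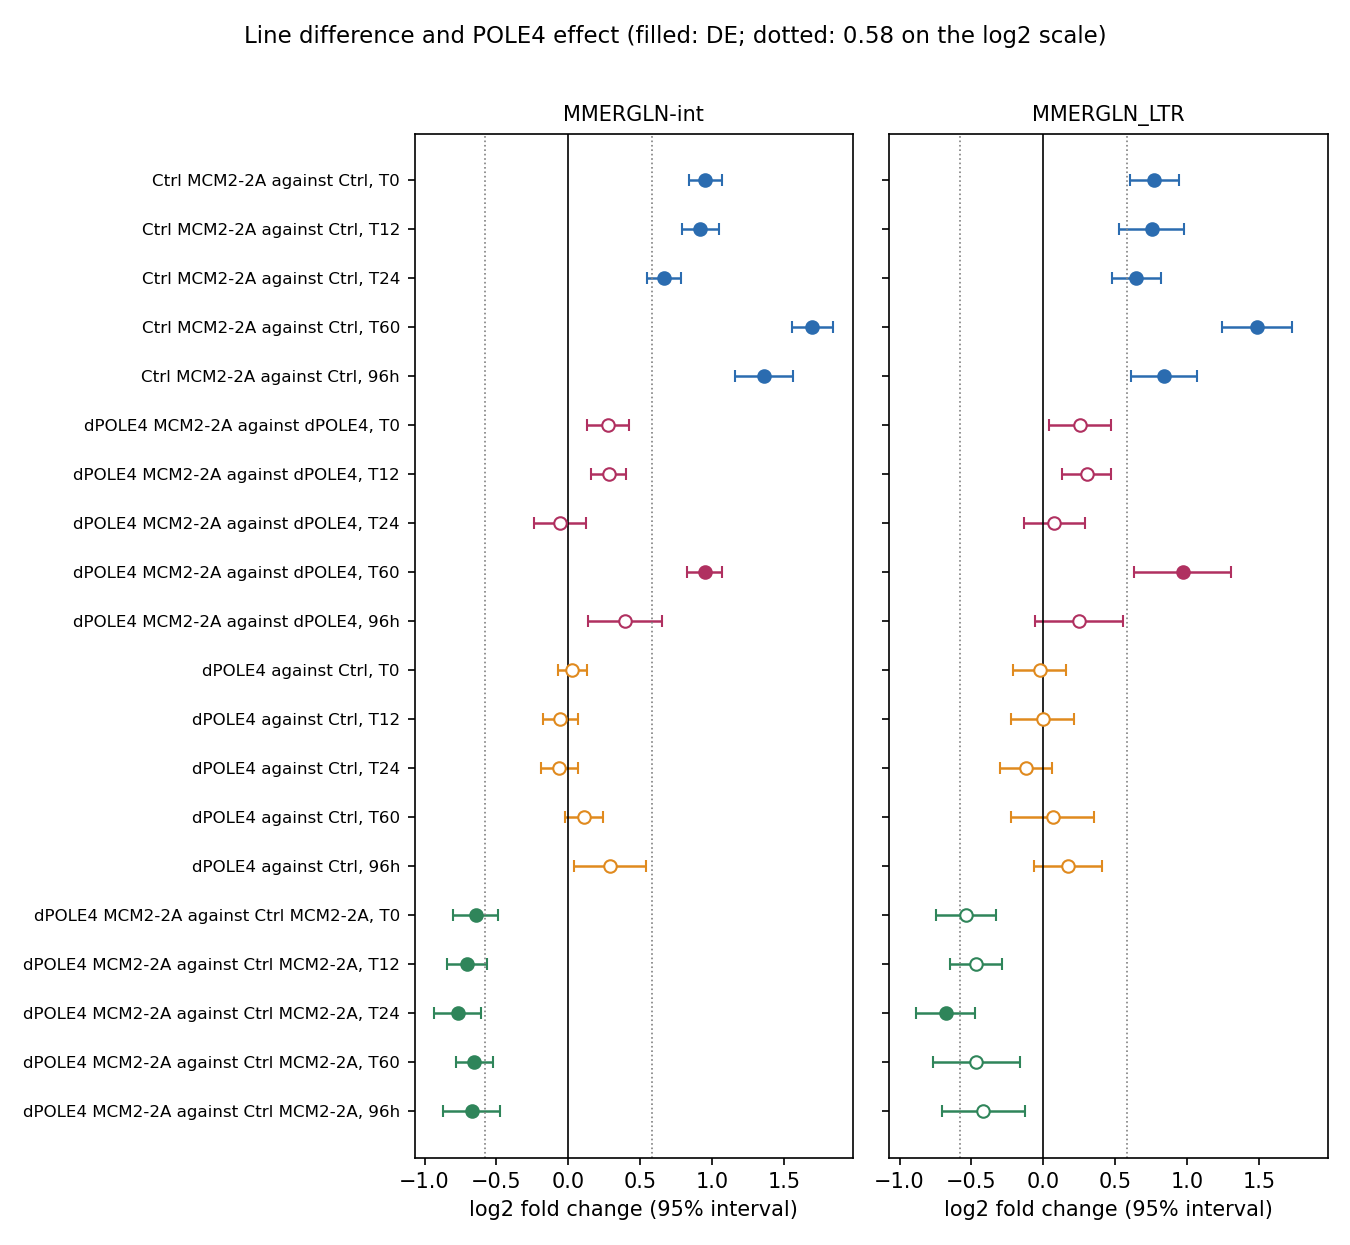
Log2 fold change (points) with 95% interval (bars) of MMERGLN-int and MMERGLN_LTR for the line difference and the POLE4 effect in each background, at T0 to T60 and 96 h. Filled points are DE and open points are not, and dotted lines mark the DE limit of 0.58. POLE4 effects of MMERGLN-int lie between −0.77 and −0.65 in MCM2-2A and between −0.06 and 0.29 in WT.

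Both members fell in the WT line between T0 and T60 in RA, and the LTR fell in the MCM2-2A line too. In Ctrl, MMERGLN-int was at 250.4 ± 6.77 CPM at T0, 259 ± 8.26 at T12 and 281 ± 12.8 at T24, and then at 116 ± 7.94 CPM at T60 (SD, n = 3). The differences from T0 were 0.04 at T12 and 0.16 at T24, not DE, and −1.12 (SE 0.065, −1.25 to −0.98) at T60, DE and 2.17-fold lower. DE lower were 4.04%, 8.27% and 23.7% of all features, and 38.4% did not overlap in that direction at T60. In dPOLE4 cells the level went from 259.6 ± 4.61 CPM at T0 to 125 ± 2.87 at T60 (log2 −1.06, SE 0.047, DE), with 4.52%, 7.46% and 22.5% of features DE lower and 38.3% not overlapping at T60.

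In the MCM2-2A line the internal part was lower at T60 by less than the DE limit. Ctrl MCM2-2A went from 498 ± 30.4 CPM at T0 to 481 ± 14.8, 436 ± 29.0 and 382 ± 5.41 CPM. The T60 difference of −0.37 (SE 0.060, −0.50 to −0.23) was not DE, although the T60 libraries lay below all T0 libraries. In dPOLE4 MCM2-2A the level was 312 ± 13.6 CPM at T0, 297 ± 19.1 at T12, 256 ± 22.0 at T24 and 241 ± 3.50 at T60 (log2 −0.40, SE 0.077, not DE). Features DE lower were 3.45%, 9.5% and 21.2% in Ctrl MCM2-2A and 3.49%, 8.77% and 19.3% in dPOLE4 MCM2-2A at T12, T24 and T60, and at T60 37.1% and 32.7% did not overlap in that direction.

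The T60 change of MMERGLN-int in Ctrl MCM2-2A minus that in Ctrl was 0.72 (SE 0.087), and with POLE4 depleted in both lines it was 0.65 (SE 0.082), both past the DE limit. DE higher in these differences were 4.7% and 4.38% of features. For MMERGLN_LTR they were 0.69 (SE 0.143, DE) and 0.70 (SE 0.189, not DE); the latter was DE without dPOLE4 MCM2-2A T0 replicate 3 or T60 replicate 1, within a range of 0.52 to 0.82.

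The LTR was lower at T60 in all 4 states and DE in each; scaled on repeats alone, it was not DE in Ctrl MCM2-2A (−0.62) and dPOLE4 MCM2-2A (−0.56). Ctrl had 22.3, 24.9 and 22.2 CPM at T0 and 8.52, 7.26 and 6.98 CPM at T60 (log2 −1.59, SE 0.114), and dPOLE4 22.2, 25.2 and 21.9 CPM against 8.04, 8.78 and 7.14 CPM (−1.53, SE 0.102). These are 3.02-fold and 2.89-fold falls. Ctrl MCM2-2A fell from 41.7, 35.6 and 43.8 CPM to 19.6, 22.6 and 23.4 CPM (−0.87, SE 0.088), and dPOLE4 MCM2-2A from 25.5, 25.3 and 30.8 CPM to 13.5, 13.8 and 19.7 CPM (−0.83, SE 0.144). No T60 library reached the T0 range of its own state.

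**Figure D3:**
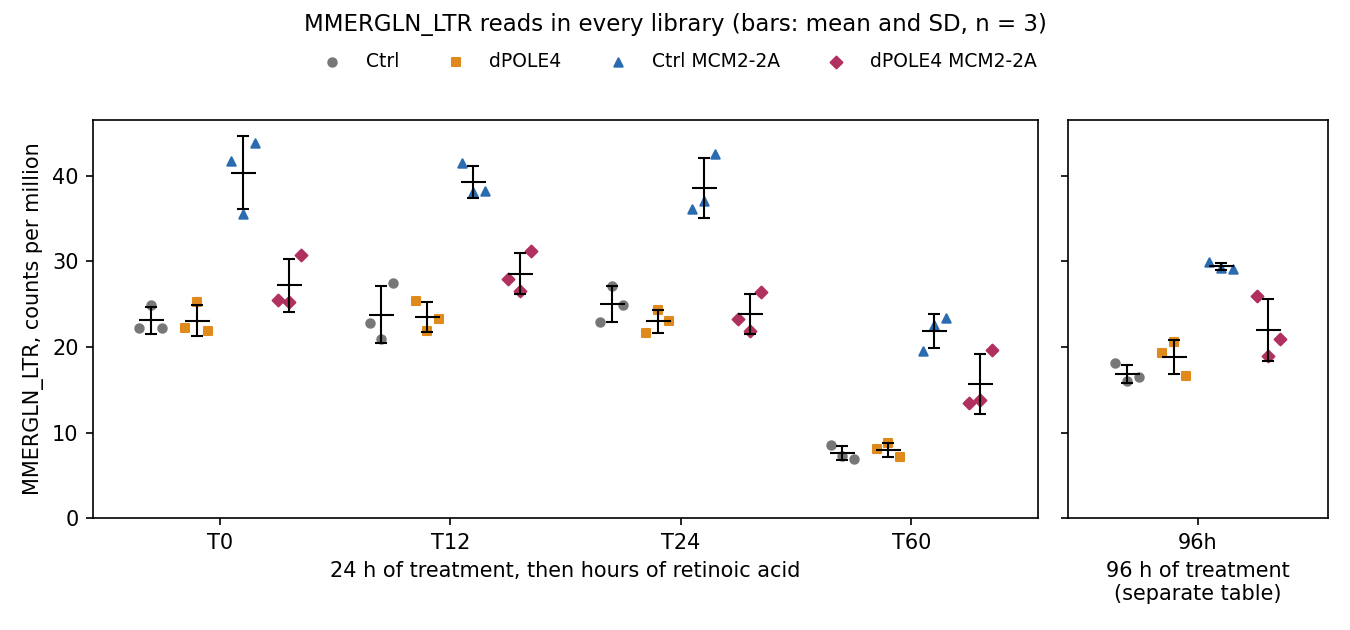
MMERGLN_LTR level (CPM, TMM-scaled, axis from 0) in each library (points) with the mean and SD of the 3 libraries of a group. All 4 states are lower at T60 than at T0, with Ctrl and dPOLE4 means of 7.59 and 7.99 CPM at T60.

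The fall in Ctrl came with a fall of repeats as a class. The median log2 change at T60 was −0.77 over the 848 repeat subfamilies tested and −0.01 over all features, and 493 repeats were DE lower. Scaled on repeats alone, the change of MMERGLN-int in Ctrl was −0.37 and no longer DE, while that of MMERGLN_LTR was −0.84 and still DE, and the difference between Ctrl MCM2-2A and Ctrl was 0.24 and 0.21, not DE for either. As a share of all repeat counts, MMERGLN-int took 0.280% ± 0.00364 of repeat counts in Ctrl at T0 and 0.199% at T60, but 0.572% ± 0.0456 and 0.575% ± 0.0254 in Ctrl MCM2-2A. In dPOLE4 MCM2-2A the shares were 0.364% and 0.350%. Repeats as a whole went from 8.41% to 5.96% of counts in Ctrl and from 8.14% to 6.94% in Ctrl MCM2-2A.

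Counts of the LTR and of the internal part did not keep one ratio. Ctrl had 9.23 ± 0.505 LTR counts per 100 internal counts at T0, 9.16 at T12, 8.90 at T24 and 6.56 ± 0.721 at T60. The ratio was lower at T60 in each state: 6.39 ± 0.516 against 8.91 ± 0.880 in dPOLE4, 5.72 ± 0.528 against 8.09 ± 0.376 in Ctrl MCM2-2A and 6.51 ± 1.54 against 8.71 ± 0.693 in dPOLE4 MCM2-2A. The T60 and T0 libraries overlapped in the last of these and not in the other 3. At 96 h the ratio was 11.9 ± 1.58 in Ctrl, 11.1 ± 1.63 in dPOLE4, 8.35 ± 1.08 in Ctrl MCM2-2A and 9.90 ± 1.96 in dPOLE4 MCM2-2A. The LTR feature counts reads of solitary LTRs and of proviral LTRs together, which these counts do not separate.

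**Figure D4:**
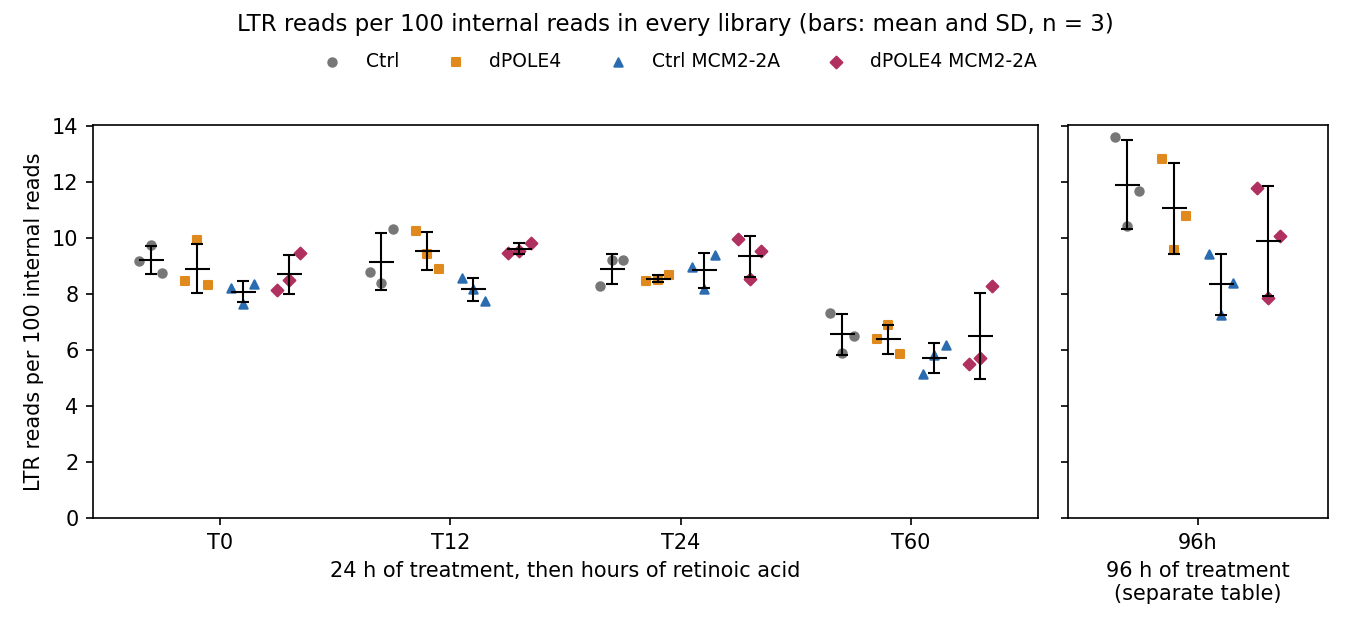
MMERGLN_LTR counts per 100 MMERGLN-int counts in each library (points), with the mean and SD of the 3 libraries of a group. The T60 means lie between 5.72 and 6.56, below the T0 means of between 8.09 and 9.23.

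Ordered by mean level over the 16 groups at T0 to T60, MMERGLN-int was highest in Ctrl MCM2-2A at T0, T12, T24 and T60, in that order, and these 4 groups stood above all others. Neighbours in this order were separated, every library of one above every library of the next, from Ctrl MCM2-2A T12 to T24, from T24 to T60 and from Ctrl MCM2-2A T60 to dPOLE4 MCM2-2A T0. From there each group overlapped with the next, from 312 CPM down to 241 CPM in dPOLE4 MCM2-2A T60. Below a last gap came dPOLE4 T60 (125 CPM) and Ctrl T60 (116 CPM), which overlapped. For MMERGLN_LTR only 2 gaps separated neighbours, below Ctrl MCM2-2A T24 and above dPOLE4 T60. At 96 h the order was Ctrl MCM2-2A, dPOLE4 MCM2-2A, dPOLE4 and Ctrl for both members, with every library of the first above every library of the second.

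The pattern of each member was compared with that of all 21329 features by Pearson's r over the 16 group means. These means share libraries' line and time, so r is given as a description. The 2 members had r = 0.943 with each other, and MMERGLN_LTR ranked first for MMERGLN-int. Next for MMERGLN-int came Slc11a2 (r = 0.921), an iron transporter, Fkbp11 (0.909), a prolyl isomerase of the endoplasmic reticulum, and Sub1 (0.908), a transcriptional coactivator. After these came 1700065D16Rik (0.908) and the small nucleolar RNA Snora2b (0.905), both at low levels (0.367 and 0.585 CPM in Ctrl at T0). For MMERGLN_LTR the order was Sub1 (0.973), the ribosomal protein gene Rpl37 (0.967), Fkbp11 (0.959), the nucleotide synthesis gene Prps2 (0.959) and the RNA-processing gene Zcchc7 (0.954). MMERGLN-int ranked 17th for the LTR.

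Slc11a2, Fkbp11, Sub1, Snora2b and Rpl37 lie on chromosome 15, whose median was higher in the MCM2-2A line, and a part of chromosome 15 in the MMERGLN pattern was not tested. With POLE4 depletion in MCM2-2A cells at T0, where MMERGLN-int differed by −0.65, the log2 difference was −0.11 (SE 0.066) for Slc11a2, −0.28 (SE 0.087) for Fkbp11, −0.04 (SE 0.081) for Sub1 and −0.39 (SE 0.099) for Rpl37. The repeats most like MMERGLN-int were MER34B-int (0.846), IAPLTR3-int (0.837), LTR50 (0.834), MERV1_LTR (0.823) and the young LINE-1 subfamily L1Md_A (0.814), which first appear at rank 66. L1Md_A led the repeats for MMERGLN_LTR (0.921), before RLTR9A2 (0.885), MER34A (0.883), LTR10_RN (0.881) and MusHAL1 (0.878). Its own log2 difference was 0.33 (SE 0.078) between the lines in Ctrl at T0, −0.18 (SE 0.114) with POLE4 in MCM2-2A and −1.57 (SE 0.071) in Ctrl at T60.

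Other retroviruses of the gamma type were counted for comparison. In Ctrl at T0, 1 of 19 tested subfamilies of 21 listed was DE higher in MCM2-2A and 1 DE lower, beside 9.83% and 9.06% of all features. The median log2 difference was −0.13 against −0.02 over all features, and 0.05 against 0.18 when scaled on repeats. RLTR1B-int, the internal part of another ERV1 family, fell from 935 to 324 CPM (log2 −1.57, adjusted p = 3.31e-08, edgeR's quasi-likelihood test with Benjamini-Hochberg adjustment) at T0, where MMERGLN-int was higher. At T60 it was DE higher in Ctrl MCM2-2A, as MMERGLN-int was, with 311 against 145 CPM (log2 1.07, adjusted p = 8.61e-09, same test; chosen after its values were seen). The LTR subfamily RLTR1F_Mm rose by 2.29 (SE 0.532, adjusted p = 0.00406, same test) at a mean level of 0.649 CPM; DESeq2 and a filter of 10 counts in every library left 1 call instead of 2. At T60, 4 of 19 were DE higher in Ctrl MCM2-2A than in Ctrl, beside 8.97% of all features, and the median was 0.30; scaled on repeats, 3 were DE higher and the median was −0.01. At 96 h, 0 of 17 were DE between the lines in Ctrl, beside 9.23% of all features DE higher. The 95% interval lay above 0 for MuLV-int (0.76), RLTR4_Mm (0.31), RLTR4_MM-int (0.34) and MuRRS4-int (0.38). It lay below 0 for RLTR1B-int (−0.29).

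POLE4 depletion in MCM2-2A cells left 0 of 19 gamma-type relatives DE at T0 by edgeR, beside 2 at an unadjusted p below 0.05 and 0 by DESeq2, and their median was −0.03. At 96 h, 0 of 19 were DE by edgeR, 2 had an unadjusted p below 0.05, 1 was DE by DESeq2 and 1 was DE with the replicate block. In WT cells at T60, 2 of 16 were DE higher with POLE4 depletion, beside 0.0584% of all features (10 of 17116), named here after their values were seen: MMVL30-int, of the VL30 elements, by 0.85 (adjusted p = 4.68e-06) and its LTR RLTR6_Mm by 0.83 (adjusted p = 0.00128, both edgeR's quasi-likelihood test with Benjamini-Hochberg adjustment). RLTR6_Mm lost its call when scaled on repeats (0.61) and in a fit with more groups (0.82), and MMVL30-int kept its call in both (0.63 and 0.84).

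Under RA the relatives went both ways. In Ctrl at T60, 8 of 18 fell and 4 rose, with a median of −0.36, beside 23.7% of all features DE lower and 26.9% DE higher. Scaled on repeats, 3 fell and 7 rose, with a median of 0.39, so the balance turned with the scaling. RLTR1B-int fell by 2.69 and MURVY-int, of Y-linked murine retroviruses, fell by 2.01 from a low level (2.31 to 0.533 CPM). RLTR6B_Mm, a VL30 LTR, rose by 2.46 (adjusted p = 1.09e-13, 5.46e-05 and 1.33e-10 in this order, edgeR's quasi-likelihood test with Benjamini-Hochberg adjustment). All 3 kept direction and call when scaled on repeats, while MMERGLN-int (−1.12) went to −0.37 and lost its call.

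The genes of H3K9-methylation silencing were counted beside the members. Between the lines in Ctrl at T0, 1 of 18 was DE higher and 1 DE lower, with a median of −0.05, beside 9.83% and 9.06% of all features. Mphosph8, which encodes the H3K9me3 reader of the HUSH complex, rose from 33.7 to 91.5 CPM (log2 1.40, adjusted p = 2.54e-08), and Morc2a, an ATPase that works with HUSH, fell by 0.58 (adjusted p = 1.88e-06, both edgeR's quasi-likelihood test with Benjamini-Hochberg adjustment). Morc2a was at the DE limit and lost its call when scaled on repeats (−0.38), and DESeq2, size factors and a filter of 10 counts in every library each left 1 call of the 2. With POLE4 depletion in MCM2-2A cells at T0, 0 of 18 were DE by edgeR (5 at an unadjusted p below 0.05, 0 by DESeq2). Their median was −0.12, beside 0.0055 over all features, of which 0.0495% were DE lower. At 96 h, 0 of 18 were DE by edgeR (4 at an unadjusted p below 0.05, 0 by DESeq2).

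In Ctrl at T60, 6 of the 18 silencing genes fell and 1 rose, beside 23.7% of all features DE lower and 26.9% DE higher; scaled on repeats, 2 fell and 7 rose. Trim28, the corepressor that KRAB proteins recruit, fell from 2606 to 852 CPM (log2 −1.62), Fam208a, a HUSH subunit, fell by 1.36, and Suv39h1, an H3K9 methyltransferase, rose by 1.68 (adjusted p = 6.54e-11, 1.7e-10 and 1.16e-11, edgeR's quasi-likelihood test with Benjamini-Hochberg adjustment). Scaled on repeats, these 3 genes kept direction and call (−0.86, −0.62 and 2.43).

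Of 7 DNA methylation genes, 2 rose and 1 fell between the lines in Ctrl at T0, beside 9.83% and 9.06% of all features. The de novo methyltransferase gene Dnmt3a was at 499 CPM in Ctrl MCM2-2A against 174 CPM in Ctrl (log2 1.48, adjusted p = 1.39e-08). Uhrf1, which brings the maintenance methyltransferase to replicated DNA, rose by 0.70 (adjusted p = 6.51e-07), and Tet2, a 5-methylcytosine oxidase, fell by 0.62 (adjusted p = 0.00011, edgeR's quasi-likelihood test with Benjamini-Hochberg adjustment for all 3). Scaled on repeats, Tet2 was not DE (−0.43) and Dnmt3l, a cofactor of de novo methylation named here after its value was seen, was DE higher (0.67). With POLE4 depletion in MCM2-2A cells 0 of 7 were DE by edgeR at T0 and 0 at 96 h (2 at an unadjusted p below 0.05 and 0 by DESeq2 each time). In Ctrl at T60, 4 of 7 fell, beside 23.7% of all features (4 fell and 2 rose when scaled on repeats), led by Tet1 (−3.64), Tet2 (−2.55) and Dnmt3b (−2.28), a de novo methyltransferase (adjusted p = 4.21e-14, 1.06e-12 and 4.57e-13, same test).

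RA changed the cell state over the interval in which MMERGLN fell. In Ctrl the pluripotency markers summed to between 2063 and 2132 CPM at T0 and between 96.9 and 115 CPM at T60, and all 4 were DE lower. The endoderm markers summed to between 109 and 155 CPM at T60, and all 3 were DE higher. In Ctrl MCM2-2A the pluripotency sum at T60 lay between 218 and 296 CPM and the endoderm sum between 240.1 and 259.6 CPM. Both sums were above those of Ctrl, as MMERGLN-int was, and the trophectoderm sum was too (14.6 to 16.7 against 4.84 to 8.39 CPM). Pou5f1 (1.70), Nanog (2.02), Zfp42 (0.71), Gata4 (1.63) and Sox17 (1.37) were DE higher. Gata6 (0.27) and Sox2 (−0.23) were not DE. In dPOLE4 MCM2-2A at T60, where MMERGLN-int was below Ctrl MCM2-2A, the pluripotency sum lay between 293 and 386 CPM, with 1 library below the highest of Ctrl MCM2-2A, and the endoderm sum between 186 and 213 CPM, below all Ctrl MCM2-2A libraries. Gata4, Gata6 and Sox17 differed by −0.34, −0.32 and −0.34 with no overlap, none of them DE (adjusted p = 0.0134, 0.0238 and 0.0215, edgeR's quasi-likelihood test with Benjamini-Hochberg adjustment). Pou5f1 went the other way and was DE higher (0.64, adjusted p = 0.00666, same test). Nanog was higher by 0.44 with no overlap but not DE (adjusted p = 0.0317, same test). Sox2 (0.15) and Zfp42 (0.24) were not DE. The part of cell composition in the T60 difference was not tested.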

How the data were processed

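RNA-seq counts were deposited by the authors as 2 tables (48 libraries at 24 h and in RA, 12 at 96 h). Per the labels and the study's methods, reads were trimmed with cutadapt 4.2, aligned to mm10 with STAR with multi-mapping reads kept, and counted by the authors with TEcount per gene and per repeat subfamily; the deposited values are raw counts, not normalized or pooled. Reads shared by copies of a subfamily, or by subfamilies, are assigned by an estimate, so levels of near-identical subfamilies are uncertain.

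The members and lists were chosen with earlier results of these data known. Each comparison was fitted within its table on its own groups (2, or 4 for a difference of effects) with edgeR 4.0.16 in R 4.3.3: filterByExpr (minimum count 10, minimum total 15), TMM, and the quasi-likelihood test, adjusted over all features tested. DESeq2 1.42.0, the study's tool, was an alternative. Other alternatives were size factors, TMM from repeats, no filter, a filter of 10 counts in every library, a fit with more groups, the replicate block and leaving out each library. Scripts were tested on simulated data.

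Genes were named by rule: from each list at most the 3 largest DE changes per comparison (line difference at T0, POLE4 effect in MCM2-2A at 24 and 96 h, Ctrl at T60), and the 5 features and 5 repeats most like each member by r. Exceptions are stated. No 2 libraries of a group agreed within counting noise (lowest chi-square per degree of freedom 2.70, 60 pairs). The labels number the replicates; the study calls them biological replicates, but no label ties numbers to a culture or day, so p-values measure the spread between these libraries. Same-numbered libraries deviated together (every pair's r above 0.1) in 2 of 10 line, 4 of 10 POLE4 and 0 of 12 RA comparisons, among them the POLE4 comparisons at T0 and 96 h. Intervals of 95% come from the fits.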

Additional observations from a re-analysis of the deposited data

Results flagged for a closer look

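Differences between 2 effects that were called over all features are listed here; both members had been chosen from such values, so they are a description. The POLE4 effect on MMERGLN-int differed between the MCM2-2A and the WT background by −0.67 at T0, −0.64 at T12, −0.72 at T24 and −0.75 at T60 (log2, MCM2-2A minus WT). The change from T0 to T60 differed between the lines by 0.72 in Ctrl and 0.65 in dPOLE4 for MMERGLN-int, and by 0.69 in Ctrl for MMERGLN_LTR (log2, MCM2-2A minus WT). Groups of 3 libraries are too small for a search for single outlying libraries.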

How the results depend on the processing

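Of 610 values from 78 member results under other settings, 584 kept the call and, where DE, the direction. Another 14 lost the call, 5 gained it, 7 moved and 0 of the called ones reversed. Of 552 values without 1 library, these numbers were 511, 35, 3, 3 and 0. Values that were not DE could change sign and still count as kept, and 24 and 20 of them changed sign. The replicate block kept 77 of 78 calls and changed no other call than the POLE4 difference of MMERGLN-int at 96 h, gained at −0.943 with the replicate block, −0.973 with DESeq2 and −0.954 with no filter. The LTR difference of the RA change with POLE4 depleted was gained with DESeq2 (0.704) and no filter (0.696). TMM from repeats moved the median of all features from −0.02 to 0.18 for the line difference at T0 (2315 DE higher and 747 lower, against 1767 and 1628), from 0.01 to −0.30 at T60 (867 and 3665, against 1620 and 1431) and from −0.01 to 0.74 for Ctrl T60 against T0 (9617 and 1483, against 4856 and 4288). With it MMERGLN-int lost its call for the POLE4 effect in MCM2-2A at T0 (−0.713) and T12 (−0.642), for the POLE4 differences from T0 to T60 (−0.883, −0.588, −0.895, −0.605), for Ctrl T60 against T0 (−0.372) and for the RA differences in Ctrl (0.240) and dPOLE4 (0.553); MMERGLN_LTR lost Ctrl MCM2-2A (−0.619) and dPOLE4 MCM2-2A T60 (−0.557) and the RA difference in Ctrl (0.215). POLE4 effects in WT, not DE, moved to 0.126 (LTR, T0), −0.100 (int, T60) and −0.150 (LTR, T60). A filter of 10 counts in every library ended the int POLE4 difference at T24 (−0.706) and POLE4 effect at 96 h (−0.668). The cause was not tested.

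Without 1 library, the int POLE4 effect in MCM2-2A ranged from −0.673 to −0.618 at T0 and from −0.729 to −0.589 at 96 h, and the int POLE4 difference from −0.712 to −0.642 at T0, −0.694 to −0.601 at T12 and −0.777 to −0.649 at T24. For the LTR the ranges were 0.570 to 0.713 for the line difference at T24, −0.0776 to 0.107 for the POLE4 effect in WT at T12, −0.666 to −0.370 in MCM2-2A at T60 and 0.522 to 0.816 for the RA difference with POLE4 depleted. Features DE for POLE4 in MCM2-2A numbered 13 at T0 (DESeq2 83, no filter 132, replicate block 143, all 4 groups 51) and 53 at 96 h (125, 239 and 307 with the first 3, and 113 with TMM from repeats). Among the lists, gamma-type relatives and H3K9 genes each went from 2 to 1 at T0 (given above), relatives DE for POLE4 in WT at T60 from 2 to 1 with TMM from repeats and with more groups in the fit (chosen after seeing the data), and relatives DE for POLE4 at 96 h from 0 to 1 with DESeq2, no filter and the replicate block.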
